A study of Mus musculus with 18 samples.

Results

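Postsynaptic density genes were followed in mouse medial prefrontal cortex after dietary PLX5622, which blocks CSF1R, a receptor that microglia need to survive. The set holds 37 genes chosen by function: scaffolds, CaM kinase II with its calmodulin partner neurogranin, and regulators of small GTPases and of actin in the spine, with receptors left out. Each of the 37 symbols matched 1 of the 54547 Ensembl identifiers in the count tables once the version was dropped. The abundance of their RNA was read by RNA-seq of total RNA, biased to the 3′ end of transcripts. Counting appears to have covered whole gene spans, so reads from introns may be included and spliced mRNA was not measured apart. One diet was chow with PLX5622 at 1200 mg/kg (9 libraries, animals numbered 25 to 35 in the labels), and it was set against a control diet (9 libraries, animals 2 to 11). All animals were C57BL6/J mice at postnatal day 100. A single treatment text, carried by the samples of both diets, describes 21 days of PLX5622, then 44 days of every-other-day access to 15% ethanol, with tissue taken 24 hours after the last ethanol. Ethanol is thus common to both diets in that text, no ethanol-free group was among the samples, and whether the diet went on during drinking is not given. Each library came from the whole dissected tissue of a separately numbered animal, so that fewer cells of a type and less RNA per cell cannot be told apart.

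The postsynaptic density is the protein meshwork under the membrane of an excitatory synapse. Membrane-associated guanylate kinases of the Dlg family hold glutamate receptors and their partners, adaptors of the Dlgap family link them to Shank, and Shank and Homer form the deeper layer that reaches actin. CaM kinase II, activated by calcium-bound calmodulin, is the most abundant signalling enzyme of this structure in forebrain and is required for long-term potentiation. In the prefrontal cortex most of these synapses sit on dendritic spines of pyramidal neurons, and microglia contact and can remove spines.

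None of the 37 postsynaptic density genes of the set was called different between the diets. Of the 37, all passed the filter on low counts, and edgeR's quasi-likelihood test called 0 lower and 0 higher at a Benjamini-Hochberg adjusted p under 0.05. Among all 11051 genes tested, 0.353% were called lower and 0.0452% higher. DESeq2 called 0 of the 37 (0.358% of all its genes lower, 0.0385% higher), and limma-voom 0 (0.371% lower, 0.127% higher). The lowest adjusted p of the 37 was 0.421, that of Synpo. At an unadjusted p under 0.05 the edgeR fit held 2 of the 37 higher, Synpo and Psd3, and 0 lower, against 3.57% and 3.22% of all genes. The median log2 fold change of the 37 was -0.016, with 13 positive and 24 negative, while that of all genes was 9.9e-05 with 50% positive. The absolute log2 fold change had a median of 0.027 over the 37, 0.069 over all genes, and 0.051 over the 5767 genes averaging 50 or more counts per library. The median SE fell in the same order, at 0.047, 0.103 and 0.075. The smaller values of the 37 thus go with higher precision, and do not show that they moved less than other genes.

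How small a change these libraries left room for is given by the intervals. For 34 of the 37 genes the 95% interval of the fold change lay inside a 1.2-fold change in either direction, a limit chosen after the values were seen. The 3 others were Homer3, with an interval of 0.656 to 1.17-fold at a mean of 11.1 counts per library, Begain, with 0.991 to 1.21-fold, and Synpo, with 1.03 to 1.23-fold. Intervals inside this limit were not counted over all genes tested, so the count of 34 describes precision and is not shown to set these genes apart. In each of the 37 genes the range of the PLX5622 libraries overlapped that of the control libraries. Overlap was not counted over all genes tested, so whether this is particular to the set cannot be told. Together the 37 genes made up 19817 ± 498 CPM (each gene's share of the scaled library total) in PLX5622 libraries and 19969 ± 548 CPM in control libraries (SD, n = 9 each), or 1.98% of counts with PLX5622 and 2.00% with control diet.

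**Figure D1:**
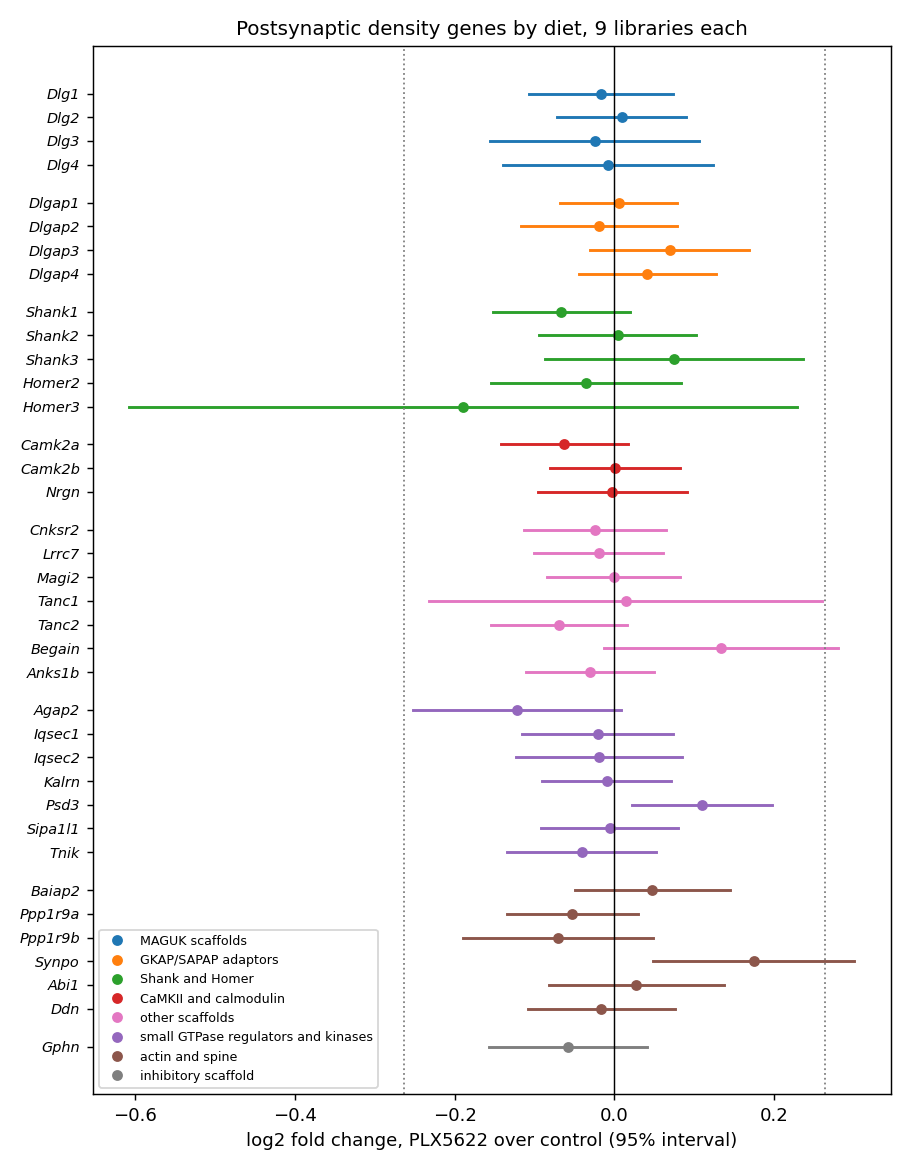
Log2 fold change of each of the 37 genes, PLX5622 over control (x axis), with points for the estimate of edgeR's quasi-likelihood fit and bars for its 95% interval, 9 libraries per diet, coloured by role; dotted lines mark 1.2-fold in either direction. The intervals of 34 genes lie between the dotted lines, and those of Homer3, Begain and Synpo cross one.

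The diet itself was visible in the same libraries. Libraries held 990136 to 1742680 counts with PLX5622 and 1107406 to 1581868 with control diet. All 12 microglial markers on a short list were called lower with edgeR, with a median log2 fold change of -1.84, and their sum was 109.1 to 195.5 CPM in PLX5622 libraries against 411.0 to 577.7 CPM in control libraries, with none of the 12 at 0. Sums of markers of cortical glutamatergic neurons, which carry most of the spines, were 1581 to 1759 CPM with PLX5622 and 1558 to 1712 CPM with control diet, and none of those 8 genes was called, with 2 higher at an unadjusted p under 0.05. No tested marker of GABAergic neurons, astrocytes, oligodendrocytes, presynapse or striatal neurons was called (for striatal neurons 6 of 8 were tested, Drd2 and Adora2a holding too few counts), and 1 presynaptic and 1 striatal marker were higher at an unadjusted p under 0.05. The part of these cells in the values of postsynaptic density genes was not tested. Among the libraries, control 8 stood apart for postsynaptic density genes by the contrast between genes of long and short span described further on. Of the 9 controls it had the lowest value for 8 of the 37 genes and the highest for 10; control 10 was lowest for as many and control 3 highest for as many. Without it edgeR again called 0 of the 37, with 4 genes at an unadjusted p under 0.05 (Agap2 and Ppp1r9b lower, Synpo and Psd3 higher). Leaving it out turned the sign of 5 small values, to 0.0016 for Dlg1, 0.029 for Dlgap2, 0.016 for Kalrn, 0.021 for Magi2 and -0.022 for Camk2b, and gave 16 positive and 21 negative log2 fold changes.

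The 4 Dlg scaffolds had log2 fold changes from -0.025 to 0.0092, with none called. Dlg4 encodes PSD-95, the core scaffold of the excitatory synapse, and lies on chromosome 11 from 70016942 to 70047522 (plus strand, GRCm38). It had a lowest, median and highest value of 264.6, 293.2 and 317.3 CPM in PLX5622 libraries, and of 216.5, 302.5 and 369.4 CPM in control libraries. The means were 291.0 ± 17.2 CPM with PLX5622 and 292.9 ± 43.5 CPM with control diet (SD, n = 9 each, as for every such pair of means). All 9 PLX5622 libraries lay inside the control range, and the control spread was the wider, with control 8 lowest and control 5 highest. The log2 fold change of Dlg4 was -0.0086 ± 0.065 (SE, adjusted p = 0.998), and -0.055 ± 0.051 without control 8. Dlg2, encoding PSD-93, averaged 2328 ± 152 CPM with PLX5622 and 2313 ± 155 CPM with control diet (SD, n = 9 each). Dlg1, encoding SAP97, averaged 290.4 ± 12.6 CPM with PLX5622 and 293.9 ± 12.9 CPM with control diet. Dlg3, the X-linked gene for SAP102, averaged 116.1 ± 15.5 CPM with PLX5622 and 117.7 ± 7.3 CPM with control diet.

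The Dlgap adaptors, which bind the guanylate kinase domain of Dlg proteins and the PDZ domain of Shank, gave 3 positive values and 1 negative. Dlgap3, whose loss in mice gives compulsive grooming, had a lowest, median and highest value of 223.1, 238.7 and 281.6 CPM in PLX5622 libraries and 206.2, 234.0 and 265.1 CPM in control libraries. The means were 243.6 ± 16.3 CPM with PLX5622 and 231.9 ± 16.5 CPM with control diet. PLX5622 was above the control mean in 8 of 9 libraries, and the log2 fold change was 0.069 ± 0.050 (SE, adjusted p = 0.871). Dlgap4 was also above the control mean in 8 of 9 PLX5622 libraries, at 416.7 ± 11.3 CPM with PLX5622 against 405.1 ± 26.2 CPM with control diet (SD, n = 9 each), with a log2 fold change of 0.041 (adjusted p = 0.939). Dlgap1 averaged 1968 ± 62 CPM with PLX5622 and 1961 ± 76 CPM with control diet. Dlgap2 averaged 599.2 ± 24.5 CPM with PLX5622 and 606.6 ± 74.7 CPM with control diet, and the highest control value, 766.5 CPM, was that of control 8. Without control 8 the control mean of Dlgap2 was 586.6 ± 47.6 CPM and its log2 fold change 0.029, so that the 1 negative value of the family rests on that library.

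Shank genes encode the large scaffolds that join Dlgap adaptors to Homer and actin. Shank1 had a lowest, median and highest value of 437.4, 461.1 and 505.7 CPM with PLX5622 and 448.3, 491.9 and 532.1 CPM with control diet. The means were 467.7 ± 24.8 CPM with PLX5622 and 489.9 ± 29.8 CPM with control diet. Of the 9 PLX5622 libraries 3 lay above the control mean, and the log2 fold change was -0.067 ± 0.043 (SE, adjusted p = 0.831). Shank2 spanned 208.6 to 234.8 CPM with PLX5622 around a median of 225.1, against 205.7 to 250.2 CPM around 228.7 with control diet. Its means were 224.3 ± 10.0 CPM with PLX5622 and 223.7 ± 14.1 CPM with control diet and its log2 fold change 0.0038 ± 0.049 (adjusted p = 0.998). Shank3, a gene of autism and Phelan-McDermid syndrome in humans, spanned 55.3 to 76.4 CPM around 69.7 with PLX5622 and 51.7 to 80.3 CPM around 65.3 with control diet. It averaged 67.9 ± 7.2 CPM with PLX5622 and 64.8 ± 8.7 CPM with control diet. Its log2 fold change was 0.075 ± 0.081 (adjusted p = 0.943), with 5 of 9 PLX5622 values above the control mean.

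Homer proteins are tetrameric adaptors that couple Shank to group I metabotropic glutamate receptors. Homer2, studied in rodents for its part in ethanol intake, spanned 120.5 to 150.2 CPM around a median of 135.7 with PLX5622, against 120.6 to 158.7 CPM around 140.8 with control diet. The groups overlapped over most of their range, with means of 134.8 ± 11.2 CPM with PLX5622 and 138.5 ± 10.7 CPM with control diet and a log2 fold change of -0.035 ± 0.060 (SE, adjusted p = 0.971). Homer3 held 95 counts in PLX5622 libraries and 104 in control libraries, with values of 3.12 to 10.6 CPM around 7.38 with PLX5622 and 5.74 to 13.9 CPM around 8.58 with control diet. Its means were 7.46 ± 2.08 CPM with PLX5622 and 8.77 ± 2.76 CPM with control diet, and the groups overlapped. Its log2 fold change of -0.19 ± 0.21 (adjusted p = 0.946) is the least precise of the 37.

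None of the 3 calmodulin-linked genes passed the test. Camk2a encodes the alpha subunit of CaM kinase II, whose mRNA is also carried into dendrites. It had a lowest, median and highest value of 1402, 1529 and 1646 CPM in PLX5622 libraries and of 1471, 1588 and 1699 CPM in control libraries. The means were 1514 ± 91 CPM with PLX5622 and 1580 ± 88 CPM with control diet. Of the PLX5622 libraries 2 lay above the control mean and 5 inside the control range, and the log2 fold change was -0.063 ± 0.040 (SE, 95% interval -0.14 to 0.016, adjusted p = 0.830). Camk2b, the beta subunit that binds actin, had 503.0, 509.0 and 533.5 CPM with PLX5622 and 447.5, 513.6 and 550.0 CPM with control diet. The means were 512.3 ± 9.1 CPM with PLX5622 and 512.0 ± 29.4 CPM with control diet. The PLX5622 libraries were packed more closely than the controls, with a coefficient of variation of 1.78% with PLX5622 against 5.74% with control diet, and the lowest control was again control 8, without which the control value was 3.44%. This difference in spread was not tested, and counting error was not separated from the spread between animals. For Dlg3 the PLX5622 value was the larger, at 13.3% against 6.17% with control diet. The log2 fold change of Camk2b was 0.00064 ± 0.041 (adjusted p = 0.999), and -0.022 without control 8. The log2 ratio of Camk2b to Camk2a CPM was -1.56 ± 0.10 with PLX5622 and -1.63 ± 0.11 with control diet (SD, n = 9 each), and its ranges overlapped, from -1.71 to -1.41 with PLX5622 and from -1.76 to -1.46 with control diet. Nrgn encodes neurogranin, a small protein of dendrites that holds calmodulin at low calcium. It spanned 1459 to 1822 CPM around 1656 with PLX5622 and 1425 to 1882 CPM around 1656 with control diet. The means were 1650 ± 109 CPM with PLX5622 and 1653 ± 166 CPM with control diet, with a log2 fold change of -0.0029 ± 0.046 (adjusted p = 0.998), and of -0.028 without control 8, its lowest control.

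**Figure D2:**
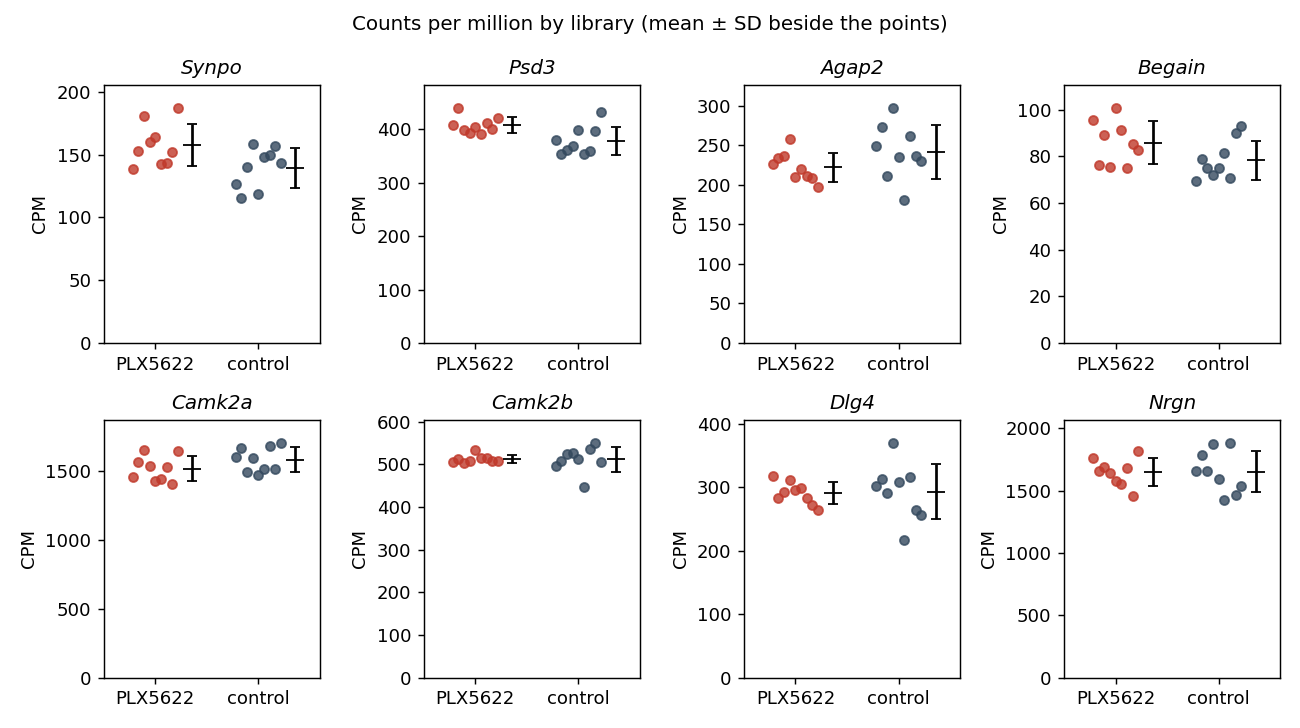
CPM of 8 genes (y axes, from 0) in every library of the PLX5622 diet (left) and the control diet (right), 1 point per library in order of animal number, with mean ± SD (n = 9) beside the points. The diets overlap in every panel. Synpo and Psd3 have 8 and 9 of 9 PLX5622 points above the control mean, and Agap2 has 1 of 9.

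Among regulators of small GTPases and kinases, Psd3 had the smallest p. Psd3 encodes a guanine nucleotide exchange factor for ARF6, which controls membrane traffic in spines. It had a lowest, median and highest value of 391.2, 404.4 and 439.3 CPM with PLX5622 and of 353.1, 368.6 and 431.7 CPM with control diet. The means were 408.0 ± 15.0 CPM with PLX5622 and 378.3 ± 26.4 CPM with control diet. All 9 PLX5622 libraries lay above the control mean, while 8 of them stayed inside the control range. The log2 fold change was 0.11 ± 0.044 (SE, unadjusted p = 0.0148, adjusted p = 0.540). Agap2, an ARF GTPase-activating protein, also known as PIKE, that binds PI3 kinase, had 197.1, 219.4 and 257.4 CPM with PLX5622 and 180.2, 236.2 and 296.5 CPM with control diet. The means were 222.3 ± 18.4 CPM with PLX5622 and 241.2 ± 34.3 CPM with control diet. Only 1 PLX5622 library exceeded the control mean, yet all 9 fell inside the control range, with control 8 the lowest of the 18 libraries. The log2 fold change of Agap2 was -0.12 ± 0.064 (unadjusted p = 0.0663, adjusted p = 0.772), and -0.17 ± 0.054 (adjusted p = 0.220) without control 8. Over 26 alternatives the adjusted p of Agap2 ran from 0.22 to 0.999.

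The other 5 genes of this class had smaller fold changes. Iqsec1, an ARF6 exchange factor, spanned 265.3 to 336.2 CPM around 310.2 with PLX5622 and 287.9 to 348.3 CPM around 303.3 with control diet. Its means were 306.5 ± 21.3 CPM with PLX5622 and 310.7 ± 19.7 CPM with control diet, with a log2 fold change of -0.021 ± 0.047 (SE, adjusted p = 0.981). Iqsec2, the X-linked exchange factor mutated in human intellectual disability, was at -0.019. Kalrn, encoding the Rac exchange factor kalirin that enlarges spines, was at -0.0097, with 999.7 ± 37.8 CPM with PLX5622 against 1007 ± 73 CPM with control diet (SD, n = 9 each). Sipa1l1, a RapGAP also called SPAR, was at -0.0061, and Tnik, a kinase that binds TRAF2 and NCK, at -0.041. The class held 1 positive and 6 negative log2 fold changes, with a median of -0.019, Kalrn being positive without control 8.

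Synpo had the smallest p of all 37 genes. It encodes synaptopodin, the actin-binding protein of the spine apparatus, the smooth endoplasmic reticulum of large spines. Its lowest, median and highest values were 138.9, 152.7 and 186.8 CPM with PLX5622 and 115.1, 143.0 and 158.2 CPM with control diet. The means were 157.9 ± 16.9 CPM with PLX5622 and 139.6 ± 15.9 CPM with control diet. PLX5622 was above the control mean in 8 of 9 libraries, and 5 of these 9 lay inside the control range. The log2 fold change was 0.17 ± 0.063 (SE, 95% interval 0.048 to 0.30, unadjusted p = 0.00754), and the adjusted p over all genes was 0.421. DESeq2 gave 0.18 (adjusted p = 0.855) and limma-voom 0.17 (adjusted p = 0.516), and over 26 alternatives the adjusted p ran from 0.246 to 0.855.

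The other actin and spine genes straddled 0. Ppp1r9b encodes spinophilin and Ppp1r9a neurabin, both of which bring protein phosphatase 1 to actin. Ppp1r9b spanned 192.5 to 256.2 CPM around 235.7 with PLX5622 and 181.6 to 278.8 CPM around 242.7 with control diet. It averaged 228.7 ± 21.7 CPM with PLX5622 and 240.2 ± 27.9 CPM with control diet. Its log2 fold change was -0.071 ± 0.059 (SE, adjusted p = 0.898), and -0.12 ± 0.052 (adjusted p = 0.579) without control 8, again the lowest library. Ppp1r9a spanned 432.8 to 501.6 CPM around 487.1 with PLX5622 and 474.0 to 529.0 CPM around 498.4 with control diet. It averaged 483.7 ± 21.1 CPM with PLX5622 and 501.7 ± 18.3 CPM with control diet. None of the 9 PLX5622 libraries exceeded the control mean of Ppp1r9a, and the log2 fold change was -0.053 ± 0.041 (adjusted p = 0.889). Ddn, encoding dendrin, whose mRNA is found in dendrites, spanned 400.6 to 507.8 CPM around 459.0 with PLX5622 and 418.9 to 500.3 CPM around 469.5 with control diet. The means were 456.8 ± 41.5 CPM with PLX5622 and 461.7 ± 26.7 CPM with control diet, with a log2 fold change of -0.016 ± 0.046 (adjusted p = 0.988). A gene on the opposite strand overlaps 43.2% of the span of Ddn. Baiap2, encoding the actin regulator IRSp53, was at 0.047 and Abi1, a subunit of the WAVE complex, at 0.027.

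Of the 7 remaining excitatory scaffolds, Begain and Tanc2 lay at either end, at 0.13 and -0.069. Begain, a partner of PSD-95, had a lowest, median and highest value of 75.1, 85.4 and 100.5 CPM with PLX5622 and of 69.5, 75.0 and 92.9 CPM with control diet. The means were 85.7 ± 9.2 CPM with PLX5622 and 78.4 ± 8.4 CPM with control diet. PLX5622 exceeded the control mean in 6 of 9 libraries, with a log2 fold change of 0.13 ± 0.073 (SE, unadjusted p = 0.0726, adjusted p = 0.782). Tanc2, a large scaffold that binds PSD-95, had 394.1, 434.9 and 466.5 CPM with PLX5622 and 429.0, 449.8 and 500.6 CPM with control diet. The means were 435.4 ± 22.6 CPM with PLX5622 and 456.8 ± 23.1 CPM with control diet. Its log2 fold change was -0.069 ± 0.043 (adjusted p = 0.827), and its paralogue Tanc1, at 24.3 ± 4.6 CPM with PLX5622 against 24.1 ± 3.1 CPM with control diet (SD, n = 9 each), was at 0.014. Lrrc7, encoding densin-180, Cnksr2, a scaffold of the Ras pathway, Anks1b, encoding AIDA-1, and Magi2, encoding S-SCAM, were at -0.020, -0.025, -0.031 and -0.00083, the last being positive without control 8. Gphn, encoding gephyrin, is the scaffold of inhibitory synapses and the 1 gene of the set that marks them. It spanned 293.8 to 360.7 CPM around 327.6 with PLX5622 and 297.4 to 407.8 CPM around 331.2 with control diet. The means were 325.6 ± 20.8 CPM with PLX5622 and 339.0 ± 35.3 CPM with control diet, with a log2 fold change of -0.058 ± 0.050 (adjusted p = 0.906).

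Between libraries of the same diet the genes of the set with long spans in the genome tended to lie on the same side. The spans of the 37 run from 5.7 kb (Ddn) to 1972.6 kb (Dlg2). Of the 35 genes averaging 50 or more counts per library, 11 span at least 400 kb. In 17 of 18 libraries at least 8 of these 11 were on the same side of their diet mean. Long genes outside the set were not counted in this way, so whether the pattern is particular to the set cannot be told. Control 8 was the extreme: 10 of the 11 long genes were above the control mean, and 4 of the 15 genes under 100 kb were. The mean deviation of the long genes minus that of the short genes was 0.26 on the log2 scale in control 8. It ran from -0.104 to 0.0558 over the PLX5622 libraries and from -0.157 to 0.0642 over the other controls. Over the 18 libraries the short genes above their diet mean numbered 4 (control 8 among others) to 13 (control 3) of 15. The long genes above it numbered 0 (control 5 among others) to 10 (control 8 among others) of 11. Dlg4, at 216.5 CPM in control 8, was next lowest at 256.6 CPM in control 11. Agap2, at 180.2 CPM in control 8, was next lowest at 210.5 CPM in control 4, and Ppp1r9b, at 181.6 CPM, at 219.4 CPM in the same library. Mitochondrial genes took 4.36% of the counts of control 8, within the 4.18% to 5.03% of the control libraries, while its astrocyte, oligodendrocyte and presynapse marker sums, 3463, 1971 and 9236 CPM, were the highest of the controls, and its sum for cortical glutamatergic neurons, 1558 CPM, was the lowest of them. Their part in the pattern was not tested, nor was that of reads from introns, which counting over whole gene spans would include. The limits of 100 and 400 kb were chosen after the values were seen.

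**Figure D3:**
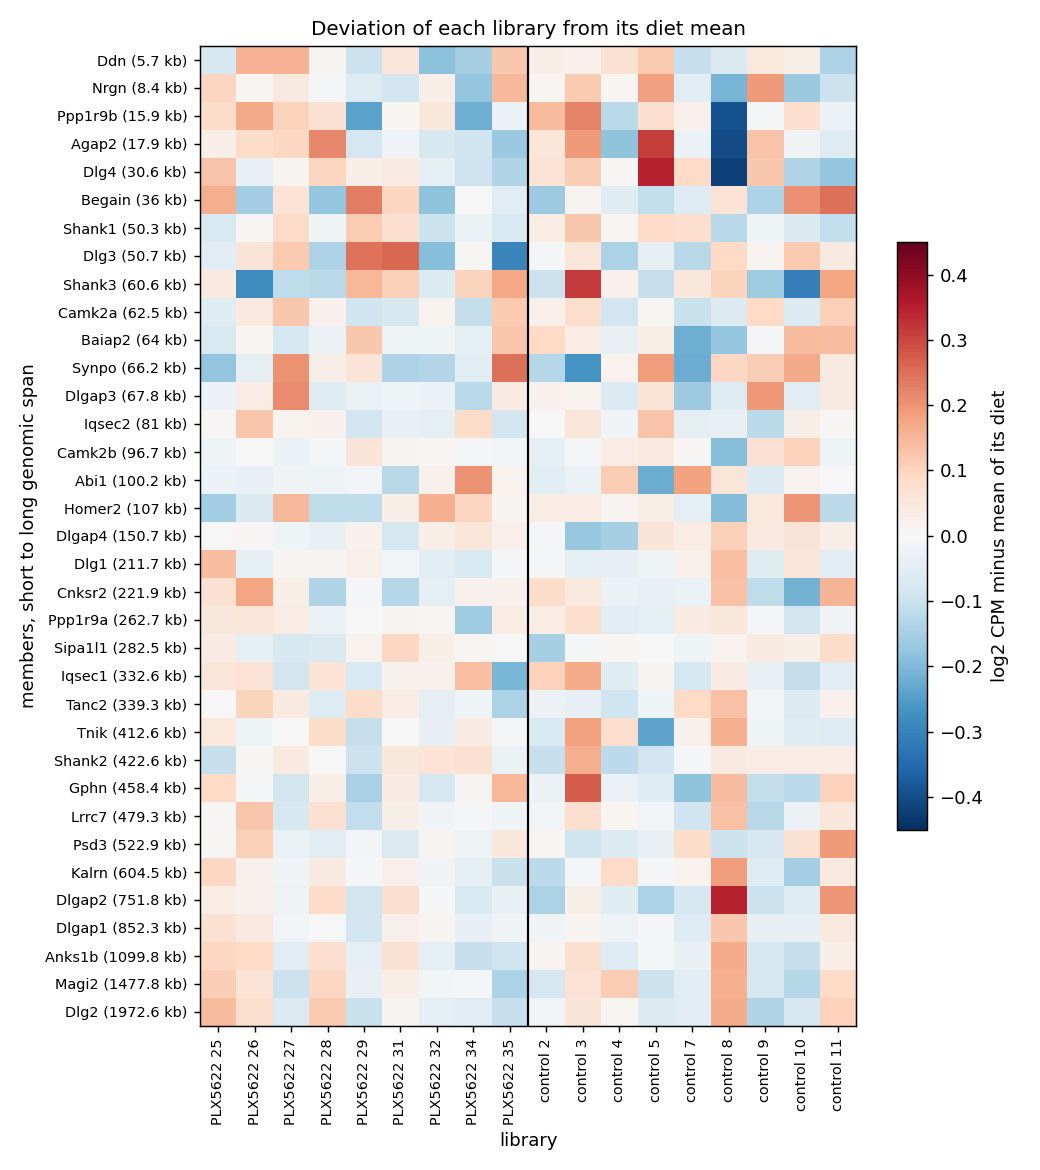
Log2 CPM of 35 genes in each library minus the mean of its diet (colour), genes from short span (top) to long span (bottom), PLX5622 libraries left of the black line and control libraries right of it. Long genes mostly share a colour within a library and in control 8 they are high, while Ppp1r9b, Agap2 and Dlg4 are low.

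Variation between libraries was close to that of other genes with many counts. The biological coefficient of variation fitted by edgeR, on a scale where 0.1 is 10%, ran from 0.0487 (Iqsec2) to 0.0853 (Dlg4) over the 37 genes. Its median was 0.057, against 0.065 over all genes tested and 0.060 over those averaging 50 or more counts per library. The fit draws the value of each gene toward that of genes with similar abundance, so this closeness is partly set by the fit. Over the 8 presynaptic markers it ran from 0.0501 to 0.0596. Dlg4, Homer3 and Agap2 were the most variable, at 0.085, 0.084 and 0.081.

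The animal number in the titles is the only other label that differs between animals, and no date, cage or session is tied to it. With the rank of the number within its diet in the model, beside diet, 0 of the 37 genes had a slope past an adjusted p of 0.05 (edgeR), while 0.145% of all genes were called with a negative and 0.163% with a positive slope. DESeq2 called 0 (0.0652% of all its genes negative, 0.0782% positive), and limma-voom 0 (0.244% negative, 0.163% positive). At an unadjusted p under 0.05 there were 3 negative slopes and 1 positive, against 4.81% and 4.45% of all genes, and 13 of the 37 slopes were positive, against 50.3% of all. Dlg4 was at -0.029 ± 0.010 log2 per rank (SE, adjusted p = 0.292), Ppp1r9b at -0.026 ± 0.010 (0.383), Agap2 at -0.025 ± 0.011 (0.476) and Synpo at 0.024 ± 0.012 (0.516). Shank1 at -0.015 and Iqsec1 at -0.016 came next (0.590 each). The slopes of Dlg4, Ppp1r9b, Agap2 and Synpo had the same sign in both diets taken alone. They were -0.024, -0.029, -0.030 and 0.015 in PLX5622 libraries and -0.036, -0.023, -0.020 and 0.034 in control libraries. These 4 genes were picked by the slope fitted to both diets, so this agreement in sign is partly fixed by the choice. Within 1 diet their adjusted p (edgeR) ran from 0.403 to 0.807 with PLX5622 and from 0.909 to 0.964 with control diet. Leaving out control 8 left the 4 slopes at an unadjusted p under 0.05, and added Anks1b and Dlg2, both negative. The count of 4 was not stable: it was 1 without control 3, 7 without control 11, 2 with DESeq2 and 5 with limma-voom. In libraries of 1 diet alone it was 5 with PLX5622 and 0 with control diet. No number occurs in both diets, so a session that followed the numbers and the diet itself cannot be told apart.

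**Figure D4:**
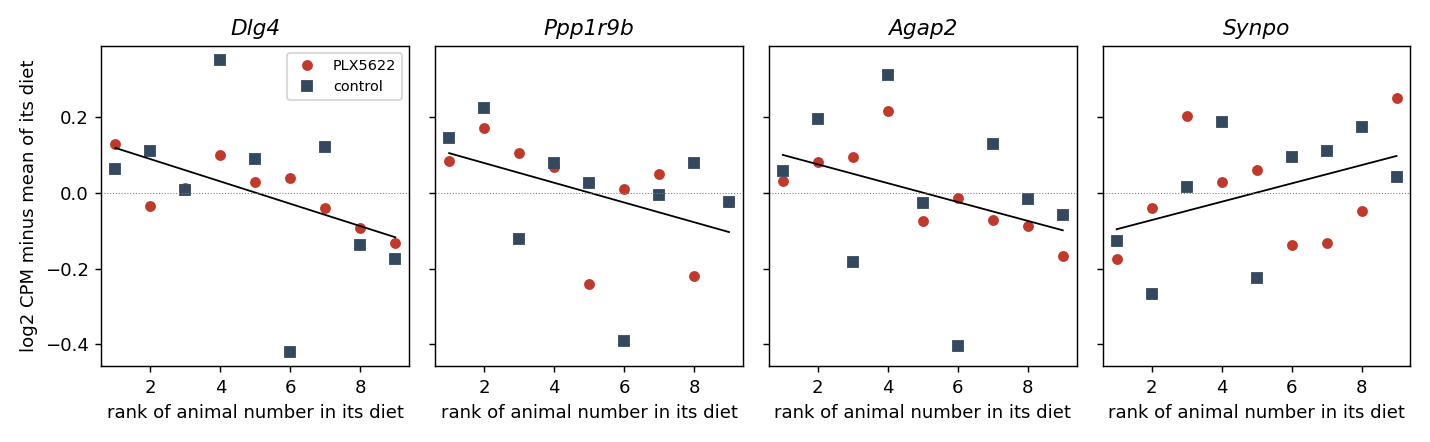
Log2 CPM of Dlg4, Ppp1r9b, Agap2 and Synpo minus the mean of the diet (y axis) against the rank of the animal number within its diet (x axis), circles for PLX5622 and squares for control, with the slope common to both diets as a line. The lines fall for the first 3 genes and climb for Synpo, and none of the slopes passed the adjusted test.

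A wider list of 55 non-receptor genes of the postsynaptic density outside the 37 gave the same count of 0 calls with edgeR. Of these 53 were tested, with 27 positive and 26 negative values and a median of 0.00086, 1 higher and 2 lower at an unadjusted p under 0.05. DESeq2 called 0 and limma-voom 1, Homer1. Homer1, the paralogue of Homer2 and Homer3 whose short isoform is induced by activity, averaged 326.5 ± 45.1 CPM with PLX5622 and 270.6 ± 27.9 CPM with control diet (SD, n = 9 each), a log2 fold change of 0.26 ± 0.073 (SE, edgeR adjusted p = 0.186, limma-voom 0.0342), and its slope on the animal number, 0.040 ± 0.0099, was called (0.0419). Over 26 alternatives the adjusted p of Homer1 for diet ran from 4.39e-05 to 0.314, with 4 under 0.05. Cyfip1, a subunit of the WAVE complex that also binds FMRP, averaged 80.3 ± 8.7 CPM with PLX5622 and 92.4 ± 4.7 CPM with control diet, with all 9 PLX5622 libraries below the control mean and a log2 fold change of -0.20 ± 0.070 (adjusted p = 0.366).

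Promoters were searched for motifs of factors that neuronal activity engages. RefSeq promoters (GRCm38.p6, 250 bases before to 50 after a start) were at hand for 29 of the 37 genes, 55 promoters in all. The cyclic AMP response element, TGACGTCA on both strands, was in 0 of the 55, against 1.79% of all 32851 promoters. The EGR motif, GCGGGGGCG on both strands, was in 3 of the 55, against 2.91% of all, the promoters of Baiap2, Iqsec2 and Shank3. Those genes had log2 fold changes of 0.047, -0.019 and 0.075, with none called. The CArG box of serum response factor was in 1 (Tanc1), against 1.63%, and the MEF2 motif in 1 (Dlg2), against 0.557%. A match says only that these letters are in the window. The EGR matches, which lie upstream of the RefSeq start, are shown 5′ to 3′ on the strand of the match, with the motif in capitals, as the promoter sites found most often among the 37 genes.
Baiap2, chr11:119942960-119942988, plus strand: gctaggctggGCGGGGGCGgacagccggg
Baiap2, chr11:119942997-119943025, plus strand: tccgggcgcgGCGGGGGCGgggcccggag
Baiap2, chr11:119942880-119942908, minus strand: gatttcggagGCGGGGGCGaagggcggag
Shank3, chr15:89499576-89499604, minus strand: ttccccggggGCGGGGGCGgcggggggag
Iqsec2, chrX:152144083-152144111, plus strand: ggtggggcgcGCGGGGGCGggtcgggaga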

How the data were processed

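The deposited values are raw read counts per gene, 1 table per library. The submitters' processing notes name HTSeq 0.11.0 and Bowtie2 2.3.4.3, FastQC 0.11.8, and R 3.5.1 with DESeq2 1.10.1, and builds mm10 and GRCm38.p6, with no roles. Strand setting and annotation release: not given in the sources used here. Among genes lying wholly inside another gene, 0 of 446 on the same strand had a count, and 525 of 803 with only an opposite-strand host did, as in counting by strand over whole gene spans. Symbols were found for 53706 of 54547 identifiers; coordinates are from GENCODE M21.

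Genes were tested across the whole table with edgeR 4.0.16 in R 4.3.3 (filterByExpr with minimum count 10 and total 15, TMM scaling, robust quasi-likelihood fit), adjusted by Benjamini-Hochberg. SE is the log2 fold change over the square root of F. Levels of different genes were not compared, since a library biased to the 3′ end is not scaled by length. The ratio of Camk2b to Camk2a is given only to set the diets side by side. Alternatives were DESeq2 1.42.0, limma-voom (limma 3.58.1), other scalings and filters, the animal number as covariate, and leaving out each library; the slope within each diet and the span classes were added after seeing the data. Simulated counts with known changes were used to test the code. Counting error and the spread between 9 animals limit precision.

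The genes, lists and tests were chosen with earlier results of these data known. Named in full were members called, the 10 with the smallest p for diet, the 6 with the smallest p for animal number, and 11 fixed genes; outside the set, the 3 with the smallest p, of which 1 is not reported here.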

Additional observations from a re-analysis of the deposited data

Results flagged for a closer look

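In 6 of 74 groups of 9 libraries (37 genes, 2 diets) 1 library lay far from the rest by Dixon's criterion, which chance meets in about 1 in 20 groups. In PLX5622 libraries Dlg1 was highest in PLX5622 25 at 320 CPM (next 295), Dlgap3 in PLX5622 27 at 282 CPM (next 250), Camk2b in PLX5622 29 at 534 CPM (next 516) and Abi1 in PLX5622 34 at 195 CPM (next 172). Ppp1r9a was lowest in PLX5622 34 at 433 CPM (next 473). In control libraries Sipa1l1 was lowest in control 2 at 330 CPM (next 361). No library appears more than once for the same direction, and the low values of Dlg4, Agap2 and Ppp1r9b in control 8 did not meet the criterion.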

How the results depend on the processing

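The count of 0 called among the 37 genes held for diet under all 26 other settings, with a lowest adjusted p of 0.22, and for the animal number under all 25, with a lowest of 0.136. Leaving out each library kept both counts at 0. The wider list had 0 calls, but 1 with limma-voom, 1 without a count filter and 1 with the animal number as covariate, Homer1 each time, and 0 to 1 when a library was left out, the 1 being Homer1 without PLX5622 25. Signs of values near 0 flipped: with limma-voom Dlg4 was at 0.0039 and Nrgn at 0.0013, with upper quartile scaling Shank2 at -0.00082 and Camk2b at -0.0037. Over the 37 genes, leaving out 1 library at a time turned the sign of 16 and kept that of 21. Among genes described in full the ranges were -0.055 to 0.037 for Dlg4, -0.040 to 0.0038 for Iqsec1, -0.012 to 0.024 for Shank2, -0.022 to 0.014 for Camk2b, -0.028 to 0.023 for Nrgn and -0.037 to 0.0064 for Ddn (log2). Others that turned included Dlgap2 (-0.040 to 0.029), Dlg2 (-0.0094 to 0.031), Dlg3 (-0.059 to 0.011) and Kalrn (-0.029 to 0.016). Without control 3 Gphn was at -0.022 and Homer3 at -0.081, and without control 10 Shank3 was at 0.038. The cause was not tested. No paired analysis was possible because no animal number occurs in both diets.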
